A study of Mus musculus with 16 samples.

Results

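The genes described here are 10 components of Notch signalling: the receptors Notch1, Notch2 and Notch3, the ligands Dll1, Jag1 and Jag2, the receptor-modifying enzyme Lfng, and the transcriptional effectors Hes1, Hey1 and Hey2. They were chosen by name, each through the probe set that carries its symbol alone, and all 10 were found among the 19938 genes with such a probe set, each with 1 probe set. Expression was measured in tooth germs of wild-type C57Bl6 mouse embryos at E14.5 (14.5 days of gestation), in 4 lower incisor samples, 8 mandibular molar samples and 4 maxillary molar samples. Each sample was RNA of a pool of 4 whole microdissected germs on its own Affymetrix Mouse Gene 1.0 ST array. The study left out 1 incisor sample, which it did not name, for high background. All 4 are used here, so the incisor group may hold a faulty array. Values are RMA log2 signals, so that a difference of 1 is a doubling of signal, and signals of different probe sets are not compared as amounts of RNA. The labels do not say which germs came from which embryo or litter, so the p-values cover only the spread among the samples themselves, which may be technical. Whole germs were profiled together with the tissue taken along with them. In such bulk samples fewer cells of a type and less RNA per cell cannot be told apart.

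Notch receptors are bound by Delta and Jagged ligands on neighbouring cells, cleaved in turn by ADAM metalloproteases and gamma-secretase, and thereby release an intracellular domain. In the nucleus this domain joins the DNA-binding protein RBPJ and a Mastermind coactivator, and switches on target genes of which the Hes and Hey repressors are the best known. In the tooth germ the receptors and ligands are expressed in dental epithelium and mesenchyme, and loss of Jag2 is known to disturb tooth crown and enamel formation.

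Since RBPJ binds a core of the letters TGGGAA, this core was searched on either strand in the stretch of 300 bases around each start site, from 250 bases before to 50 after it (RefSeq, GRCm38.p6). Windows were found for 8 of the 10 genes, 9 windows in all because Dll1 has 2; Hes1 and Hey1 were without an entry. TGGGAA occurred in 25.6% of the 32851 mouse windows of this length, and in 2 of the 9 windows here, those of Hey2 and Lfng. Both are shown because they hold the core, with the 2 windows of Dll1, the gene that passed the test in both comparisons between tooth types. The window of Hey2 is chr10:30842734-30843033 on the minus strand and that of Lfng chr5:140607091-140607390 on the plus strand. The windows of Dll1 are chr17:15376883-15377182, called upstream below, and chr17:15375774-15376073, called downstream, both on the minus strand. Each sequence is written 5′ to 3′ along the gene's own strand, and capitals mark TGGGAA or its reverse complement TTCCCA.
Hey2: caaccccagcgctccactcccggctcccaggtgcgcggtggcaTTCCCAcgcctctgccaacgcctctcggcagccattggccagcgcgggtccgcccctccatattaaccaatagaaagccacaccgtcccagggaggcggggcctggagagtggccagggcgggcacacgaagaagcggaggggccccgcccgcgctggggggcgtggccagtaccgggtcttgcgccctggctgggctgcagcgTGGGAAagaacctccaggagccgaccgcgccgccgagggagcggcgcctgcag
Lfng: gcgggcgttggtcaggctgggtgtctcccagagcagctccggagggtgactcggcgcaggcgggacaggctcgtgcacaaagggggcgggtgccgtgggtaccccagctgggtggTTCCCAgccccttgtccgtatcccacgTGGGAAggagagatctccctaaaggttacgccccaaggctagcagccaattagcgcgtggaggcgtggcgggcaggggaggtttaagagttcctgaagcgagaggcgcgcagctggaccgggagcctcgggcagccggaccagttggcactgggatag
Dll1 upstream: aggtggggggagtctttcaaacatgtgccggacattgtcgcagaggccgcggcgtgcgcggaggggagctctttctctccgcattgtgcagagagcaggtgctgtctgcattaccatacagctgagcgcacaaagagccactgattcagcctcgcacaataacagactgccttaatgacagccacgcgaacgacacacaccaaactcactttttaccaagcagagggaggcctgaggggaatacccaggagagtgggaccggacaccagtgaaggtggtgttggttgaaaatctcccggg
Dll1 downstream: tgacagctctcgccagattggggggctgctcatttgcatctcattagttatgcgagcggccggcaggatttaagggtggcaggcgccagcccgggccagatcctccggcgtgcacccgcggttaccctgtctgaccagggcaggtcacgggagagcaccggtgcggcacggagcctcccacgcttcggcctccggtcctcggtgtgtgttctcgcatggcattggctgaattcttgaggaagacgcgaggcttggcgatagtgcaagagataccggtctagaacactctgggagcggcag
Hey2 held the core at positions -207, on the opposite strand, and -3 relative to the start site. Lfng held it at -135, on the opposite strand, and at -108, where it overlapped a CACGTG E-box at -112, the motif that Hes and Hey proteins bind, present in 7.15% of all windows. A match of letters is a description and no binding site, and neither Dll1 window held TGGGAA.

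The samples were even in overall signal, with medians of 6.80 to 6.99 and 76.1% to 79.2% of probe sets above a log2 signal of 5. Markers of dental epithelium (13 measured) and of dental mesenchyme (14 measured) were above 5 in at least 1 sample of every tooth type, with list means of 9.38 to 10.13 and 9.44 to 10.28. Markers of neighbouring tissue were measured too: the 14 skeletal muscle genes had a mean of 8.71 to 8.95 in the incisors, 7.53 to 8.87 in the mandibular molars and 6.65 to 7.21 in the maxillary molars, and the 10 cartilage genes 7.28 to 8.27, 6.90 to 7.16 and 6.93 to 7.07. In neither list was a gene at or below 5 in all samples of a tooth type. The mandibular molars fell into 2 series by number. Samples 5 to 8 correlated with the maxillary molars at an r over probe sets of 0.9942 (median of the pairs of samples) but with mandibular molars 1 to 4 at 0.9898, and the incisors correlated with mandibular molars 1 to 4 at 0.9902 but with 5 to 8 at 0.9861. The labels name no batch, so this split rests on the expression values alone. Results are therefore given also within mandibular molars 1 to 4 for the incisors and within 5 to 8 for the maxillary molars. Mandibular molar 2 had the lowest dental epithelium mean of all 16 samples, 9.38, and the highest muscle mean of the 8 mandibular molars, 8.87.

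**Figure D1:**
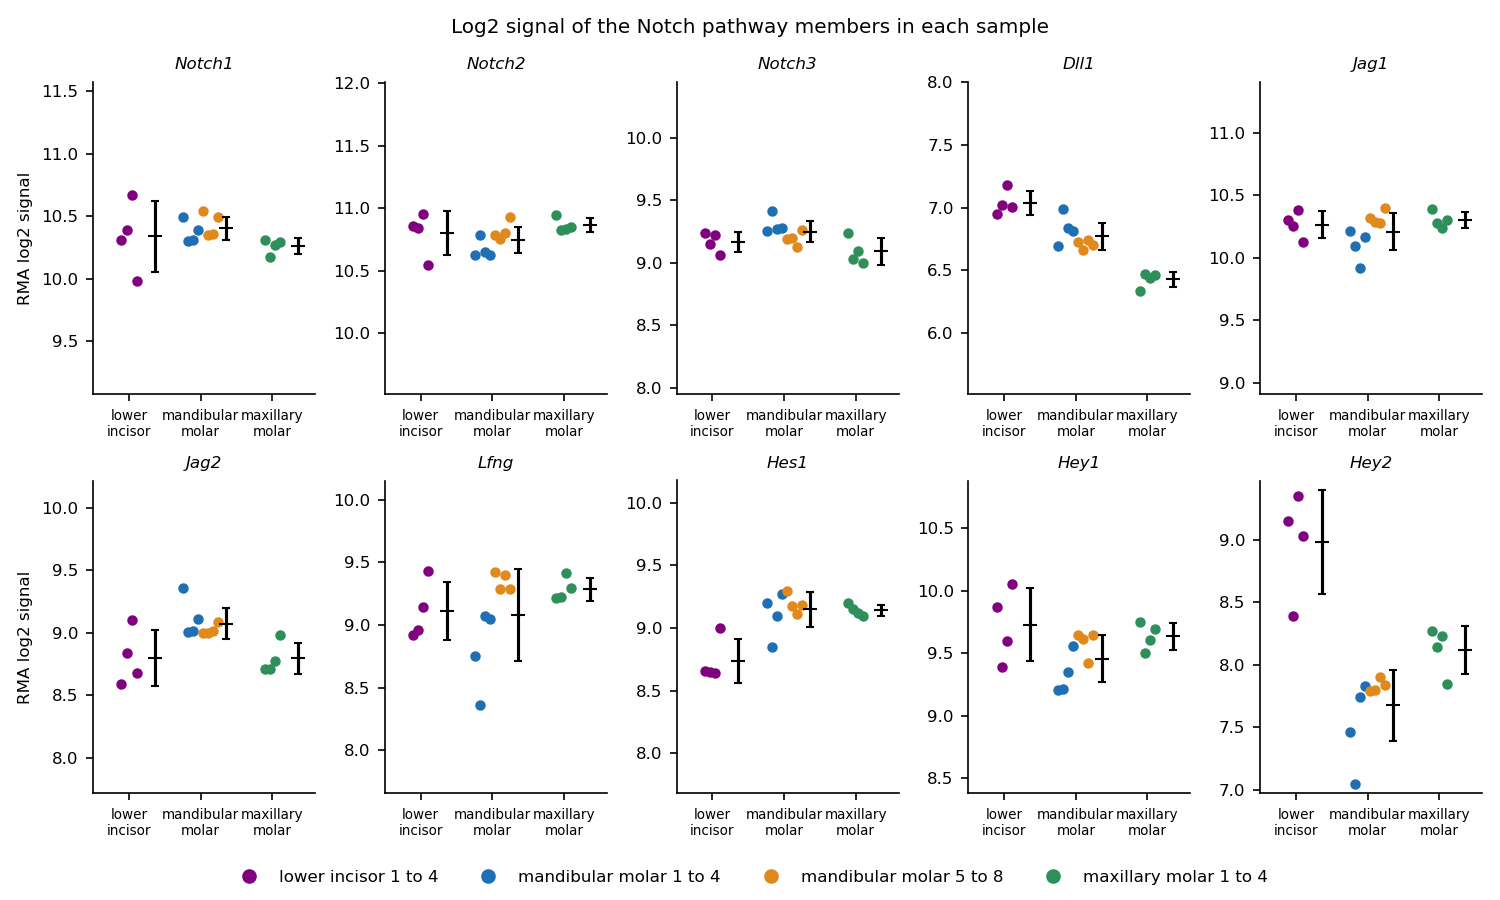
RMA log2 signal (y axis, the same span in each panel) of the 10 genes in the 16 samples, by tooth type (x axis). Points are samples, coloured by tooth type and by mandibular series, and bars are the mean ± SD of the tooth type (n = 4, 8 and 4); Hey2 in the incisors and Dll1 in the maxillary molars lie apart from the mandibular molars.

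The question of what sets a molar germ apart from an incisor germ was addressed by comparing the 8 mandibular molars with the 4 lower incisors. The largest difference among the 10 genes was in Hey2, which was 2.47-fold lower in the molars, and the ligand Dll1 was also lower, by a fold just past the limit of 1.2. Hes1 was 1.33-fold higher in the molars. The 3 receptors, Jag1, Jag2, Lfng and Hey1 did not pass the test, which required a Benjamini-Hochberg adjusted p below 0.1 in limma over 29258 probe sets and a fold change above 1.2. Of all probe sets tested 4.93% passed, 2.75% higher and 2.18% lower in the molars, against 1 higher and 2 lower of the 10 genes, whose median difference was -0.04 beside -0.02 over all probe sets.

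Hey2 encodes a basic helix-loop-helix repressor downstream of Notch that is best known from heart and vessel development. Its log2 signal was 9.15, 8.39, 9.35 and 9.03 in the incisors. In the mandibular molars it ran from 7.05 through a median of 7.79 to 7.90. Every molar sample lay below every incisor sample, a separation found downwards in 1.77% of all probe sets tested, and the lowest molar value was that of sample 2. The difference was -1.30 ± 0.18 (SE; 95% interval -1.70 to -0.91), with an adjusted p of 0.00138 in limma. Within mandibular molars 1 to 4 it was -1.46 with an adjusted p of 0.0236, and leaving out any 1 sample gave -1.50 to -1.18. Hey2 is expressed in endothelium, so endothelial markers were set beside it. The 15 endothelial genes, among them Pecam1, Cdh5 and Kdr, had a list mean of 8.91 to 9.17 in the incisors and 8.82 to 9.10 in the mandibular molars, with 0 higher, 1 lower (Sox18) and a median difference of -0.00. Cartilage markers were lower in the molars in 7 of 10 and skeletal muscle markers in 7 of 14, with median differences of -0.73 and -0.83. Markers of keratinizing epithelium were lower in 4 of 10, with a list mean of 7.47 to 7.92 in the incisors and 6.62 to 7.73 in the mandibular molars. The part of these tissues in the Hey2 result was not tested.

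Hes1, another Notch-induced repressor, which keeps progenitor cells from differentiating in many tissues, ran the other way. The incisors had 8.65, 8.65, 8.64 and 9.00. The mandibular molars ran from 8.84 through a median of 9.18 to 9.30. Incisor 4 stood above the other incisors and above mandibular molar 2, and the other 7 molars lay above all 4 incisors. The difference was 0.41 ± 0.09 (SE), with an adjusted p of 0.0269. With mandibular molars 1 to 4 only, it was 0.37 and no longer passed (adjusted p = 0.323 in limma). Without incisor 3 it was 0.38, with an adjusted p of 0.102. Incisor 4 also had the highest dental mesenchyme mean of the incisors, 9.75 against 9.44 to 9.52. It was likewise the highest incisor in the lists of endothelium, mural cells, muscle, cartilage, neurons, Schwann cells, macrophages and red blood cells. Its means for dental and keratinizing epithelium lay within those of the other incisors. In the mesenchyme list 5 of 14 markers were higher in the molars and 0 lower. The homeobox gene Lhx6 led at 2.24 ± 0.13 (SE), while Msx2 was at -0.76 without passing. The part of these tissues in the Hes1 result was not tested.

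Dll1, the Delta-type ligand known for its roles in somites and in maintaining embryonic muscle progenitors, was the only one of the 3 ligands to pass. Its log2 signal was 6.95, 7.02, 7.18 and 7.00 in the incisors. In the mandibular molars it ran from 6.66 through a median of 6.73 to 6.99, and 7 of 8 molars lay below all incisors. The exception was mandibular molar 2. The difference was -0.27 ± 0.07 (SE) with an adjusted p of 0.0555, close to the fold limit. Within mandibular molars 1 to 4 it was -0.20 and did not pass (adjusted p = 0.517 in limma). It also failed to pass without mandibular molar 1, 5, 6 or 8 or incisor 2 or 3, with an adjusted p of up to 0.196, that without incisor 3, in limma. In the paper's quantitative RT-PCR on separate RNA samples Dll1 ran the other way, higher in molars than in incisors, without statistical significance.

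The remaining genes gave smaller differences or wider spreads. Jag2, the Jagged ligand with a known role in the dental epithelium, was at 8.59, 8.83, 9.10 and 8.68 in the incisors and at 8.99 to 9.36, median 9.02, in the mandibular molars. Incisor 3 lay within the molar range, and the difference of 0.27 ± 0.10 (SE) had an adjusted p of 0.155; without incisor 3 it was 0.37 with an adjusted p of 0.0473 in limma. Hey1, the closest relative of Hey2 among the 10, was at 9.39 to 10.05 in the incisors and 9.21 to 9.65 in the molars. Its difference of -0.27 ± 0.13 (SE) had an adjusted p of 0.281. The receptors Notch1, Notch2 and Notch3 differed by 0.06 (95% interval -0.16 to 0.29), -0.06 (-0.23 to 0.12) and 0.08 (-0.05 to 0.21). Jag1, the Jagged ligand widely expressed in epithelium and mesenchyme, differed by -0.06 (-0.24 to 0.13). Lfng, the fringe glycosyltransferase that extends O-fucose on Notch receptors and shifts their response from Jagged towards Delta ligands, differed by -0.03 (-0.43 to 0.37). The intervals of the receptors and of Jag1 lay within 0.29 of 0, and that of Lfng was the widest of the 10.

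**Figure D2:**
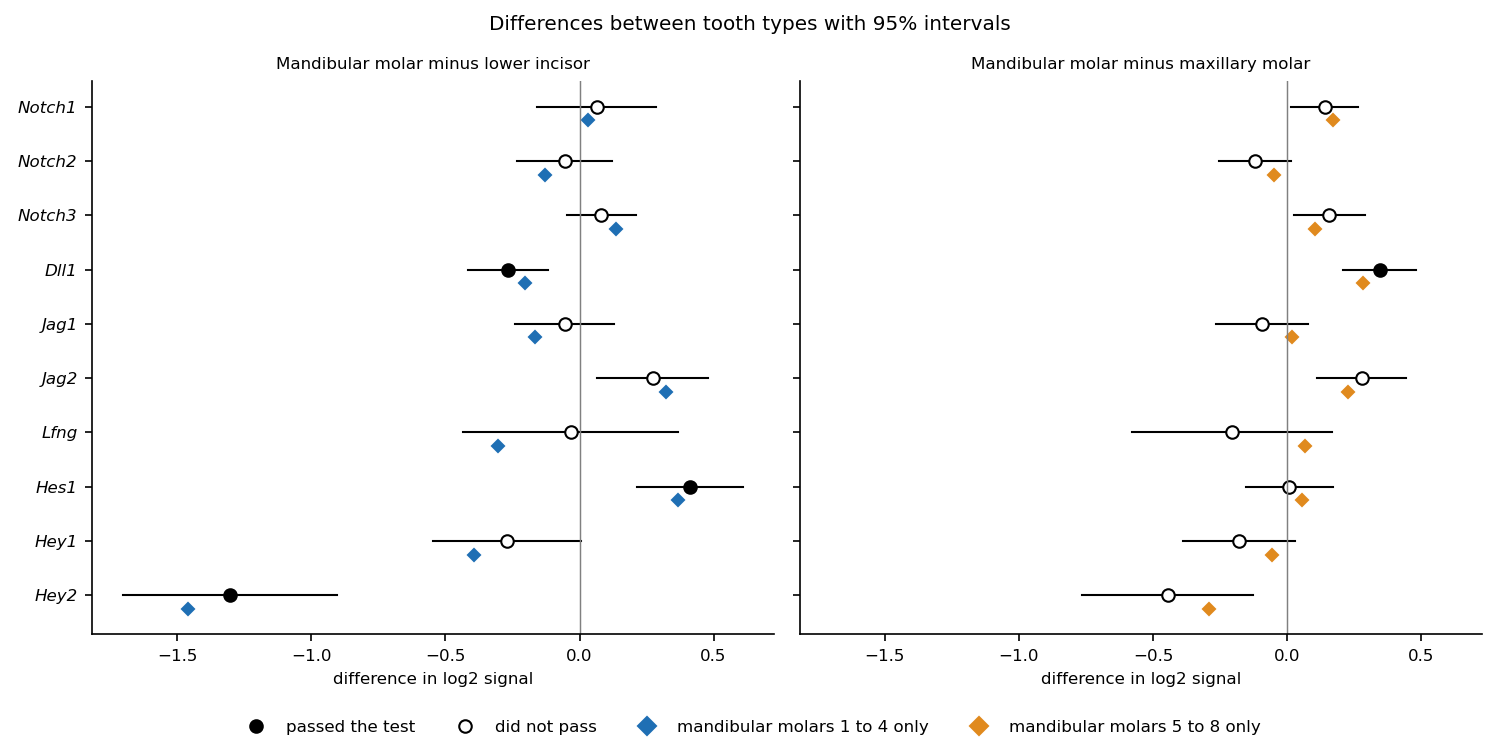
Difference in log2 signal (x axis) of the 10 genes (y axis) between mandibular molars and lower incisors (left) and maxillary molars (right). Circles with lines are the limma difference and its 95% interval, filled where the gene passed, and diamonds are the difference with mandibular molars 1 to 4 (left) or 5 to 8 (right) only; Hey2 at -1.30 on the left and Dll1 on both sides stand off the zero line.

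The comparison of lower with upper molars asked which genes distinguish teeth of the same class in opposite jaws, and it used the same 8 mandibular samples. Dll1 alone passed among the 10 genes, 1.27-fold higher in the mandibular molars, beside 2.18% of all 29068 probe sets, 1.01% higher and 1.18% lower. The ligand Jag2 separated the groups without passing the test, and Hes1 differed by 0.01. The median difference of the 10 genes was -0.04 beside 0.02 over all probe sets.

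The maxillary molars had Dll1 values of 6.34, 6.47, 6.44 and 6.46, below every mandibular value (6.66 to 6.99), as was found upwards for 2.08% of all probe sets. The difference was 0.34 ± 0.06 (SE; 95% interval 0.21 to 0.48), with an adjusted p of 0.0188 in limma. With mandibular molars 5 to 8 only, it was 0.28 with an adjusted p of 0.0400, and without any 1 sample it stayed at 0.31 to 0.36. On these arrays Dll1 was thus highest in the incisors, at a mean of 7.04 ± 0.10 (SD, n = 4), intermediate in the mandibular molars, at 6.77 ± 0.11 (n = 8), and lowest in the maxillary molars, at 6.43 ± 0.06 (n = 4). The paper's quantitative RT-PCR did not give the incisor part of this order. In its comparison of lower with upper molars, also on separate RNA, Dll1 was among the genes assayed. There the paper names only Gli1 and Wnt11 as not differing, and reports the others as differing as on the arrays. The skeletal muscle markers had the same order as Dll1 on the arrays, falling from incisors to maxillary molars. Of these, 12 of 14 were higher in mandibular than in maxillary molars, with a median difference of 1.04, led by the myosin heavy chain gene Myh3 at 2.14 ± 0.29 (SE). Over the 16 samples the genes with a pattern most like that of Dll1, among 14235 genes with a mean above 6, were the muscle genes Tnnt1 (troponin T), Mybph (myosin-binding protein H) and Ttn (titin), at Pearson r of 0.962, 0.956 and 0.953. These correlations span tooth types and both series and are a description. Mandibular molar 2 had both the highest Dll1 signal, 6.99, and the highest muscle mean of the mandibular molars, and the part of muscle tissue in the Dll1 differences was not tested.

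**Figure D3:**
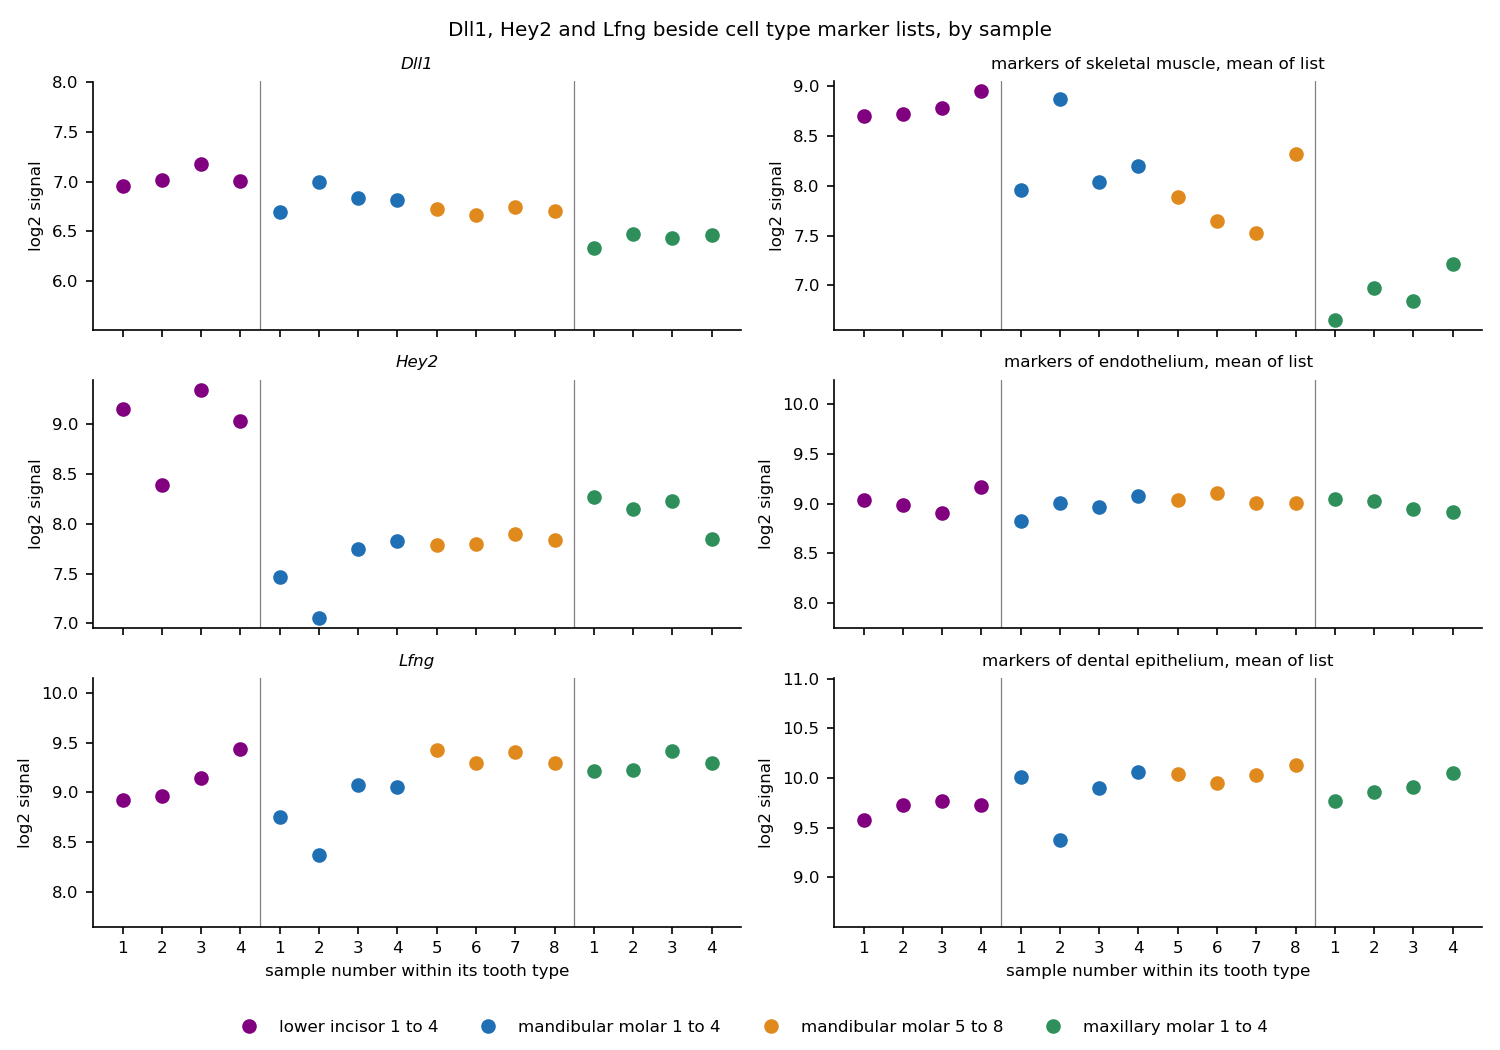
Log2 signal (y axis, the same span in each panel) of Dll1, Hey2 and Lfng (left) and mean log2 signal of the marker lists of skeletal muscle (14 genes), endothelium (15) and dental epithelium (13) (right) in each of the 16 samples (x axis, numbered within their tooth type). Dll1 and the muscle list both step down from incisors to maxillary molars, while the endothelial list keeps to 8.82 to 9.17 throughout.

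Jag2 was at 8.71, 8.71, 8.78 and 8.98 in the maxillary molars, all below the lowest mandibular value of 8.99, the only other upward separation among the 10 genes. Its difference of 0.28 ± 0.08 (SE) had an adjusted p of 0.108, just outside the threshold. It passed without maxillary molar 4, at 0.34 with an adjusted p of 0.0771 in limma, and under 7 of 16 other settings. Against mandibular molars 1 to 4 it was 0.33, with an adjusted p of 0.0509, and against 5 to 8 it was 0.23, with an adjusted p of 0.196. Jag2 levels in incisors and maxillary molars were close in mean, at 8.80 ± 0.22 and 8.80 ± 0.13 (SD, n = 4 each), and both lay under the mandibular mean of 9.07 ± 0.12 (n = 8).

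Hey2 was at 8.27, 8.15, 8.23 and 7.85 in the maxillary molars, and 7 of 8 mandibular molars lay below all of these. The difference of -0.45 ± 0.15 (SE) had an adjusted p of 0.179 in limma. It depended on the mandibular series used. Against mandibular molars 1 to 4 it was -0.60, with an adjusted p of 0.0469, and against 5 to 8 it was -0.29, with an adjusted p of 0.229. The order of the Hey2 means was 8.98 ± 0.41 in incisors, 8.12 ± 0.19 in maxillary molars and 7.68 ± 0.29 in mandibular molars (SD). Genes with a pattern most like Hey2 over the 16 samples were the secreted ligand gene Wnt5a, the zinc finger gene Gata3 and the relaxin-family receptor gene Rxfp3, at r of 0.941, 0.925 and 0.919. Wnt5a averaged 11.25 in the incisors, 9.80 in the mandibular molars and 10.17 in the maxillary molars.

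Hes1 was at 9.20, 9.15, 9.12 and 9.09 in the maxillary molars, amid the mandibular values, and the difference was 0.01 (95% interval -0.15 to 0.17). Its pattern, low in 3 incisors and level in the molars of either jaw, was most like that of Ppp1r1a (a protein phosphatase inhibitor), Rtl9 and Eftud2 (a spliceosome component), at r of 0.968, 0.955 and 0.940. The receptors Notch1 and Notch3 were higher in the mandibular molars by 0.14 ± 0.06 and 0.16 ± 0.06 (SE) on the log2 scale, with adjusted p of 0.258 and 0.237, and Notch2 differed by -0.12 ± 0.06 (adjusted p = 0.330). Jag1, Lfng and Hey1 differed by -0.09, -0.21 and -0.18, with adjusted p of 0.528, 0.521 and 0.348. None of these 6 genes passed the test. Against mandibular molars 1 to 4 only, Lfng (-0.48, adjusted p = 0.0608) and Hey1 (-0.30, adjusted p = 0.0578) did.

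Maxillary molars and incisors were not tested against each other. The labels name no batch, and whether the split among the mandibular molars extends to the maxillary molars and incisors was not tested. Dll1, Hes1 and Hey2 did not overlap between these groups, beside 32.3% of 29075 probe sets, 15.9% higher and 16.5% lower in the maxillary molars. Dll1 and Hey2 were lower and Hes1 higher in the maxillary molars.

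The mandibular molars 1 to 4 and 5 to 8 are the same tooth under the same label, and the difference between them shows how far each gene varied beyond tooth type. The split was chosen with expression values of these samples known, so its separations and adjusted p-values are a description and no independent test. Lfng was at 8.75, 8.36, 9.07 and 9.05 in samples 1 to 4 and at 9.43, 9.29, 9.40 and 9.29 in samples 5 to 8. Every value of the former lay below every value of the latter, as in 11.4% of 28936 probe sets, and the difference was -0.54 ± 0.15 (SE; adjusted p = 0.0620 in limma), beside 11.8% of probe sets that passed, 7.29% lower. The call was lost without mandibular molar 1, 5, 6, 7 or 8, with an adjusted p of 0.120 to 0.144. Lfng lay between -0.30 and 0.24 against the incisors, according to whether samples 1 to 4 or 5 to 8 were used. The dental epithelium mean was 9.38 to 10.06 in samples 1 to 4 and 9.96 to 10.13 in samples 5 to 8, with its lowest value, like that of Lfng, in sample 2. Samples 1 and 4 had epithelium means of 10.01 and 10.06, within the range of samples 5 to 8, although their Lfng was lower. The dental mesenchyme mean was 9.62 to 10.03 in samples 1 to 4 and 10.01 to 10.18 in samples 5 to 8. The part of either tissue in the Lfng difference was not tested. Jag1 also separated the series, at 10.21, 10.09, 9.92 and 10.17 against 10.32, 10.29, 10.28 and 10.40, but its difference of -0.22 stayed under the fold limit (adjusted p = 0.0955 in limma). Hey2 and Hey1 passed only without mandibular molar 4, at -0.41 and -0.32, and with all samples they differed by -0.31 and -0.25 (adjusted p = 0.242 and 0.138 in limma). The 3 receptors, Dll1, Jag2 and Hes1 differed between the series by at most 0.15 in size.

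Other genes of the pathway were taken from a list of 61, of which 58 were measured. Between mandibular molars and incisors 1 of the 58 was higher and 2 were lower, a share near that of all probe sets (4.93%; 2.75% higher and 2.18% lower), with a median difference of 0.04 beside -0.02 over all probe sets. With mandibular molars 1 to 4 only, 0 of the 58 passed in limma, where 4 were at an unadjusted p under 0.05, and 0 by the methods' t-test, where 5 were. The count was 1 without incisor 2 or 3 and 5 without incisor 4 or mandibular molar 2. Fbxw7, a ubiquitin ligase subunit that marks the Notch intracellular domain for degradation, was higher in the molars by 0.40 ± 0.11 (SE; adjusted p = 0.0658 in limma). Dlk1, a noncanonical ligand that inhibits Notch, differed by -0.41 ± 0.09 (adjusted p = 0.0287), and Rbpjl, an RBPJ relative that does not bind the receptor domain, by -0.31 ± 0.07 (adjusted p = 0.0381), at signals of 5.91 in incisors and 5.60 in molars. Among the genes that did not pass, Rbpj itself differed by 0.12, Notch4 by 0.08, Dll4 by 0.08, Dll3 by -0.08, Heyl by 0.04, Rfng by -0.17 and Dtx4 by -0.30, with adjusted p of at least 0.198 in limma. The Mastermind genes Maml3 and Maml2 came closer, at 0.26 and 0.34 (adjusted p = 0.0937 and 0.105 in limma), and Maml3 missed only the fold limit. Maml1 differed by -0.01.

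Between mandibular and maxillary molars 3 of the 58 were higher and 2 lower, beside 2.18% of all probe sets (1.01% higher and 1.18% lower), with a median difference of -0.01 beside 0.02. With mandibular molars 5 to 8 only, 2 were higher and 2 lower, and without maxillary molar 1, 2 or 4 the count was 2. Those higher were 2 noncanonical ligands, Dner at 0.54 ± 0.07 (SE; adjusted p = 0.00189 in limma) and Dlk1 at 0.44 ± 0.09 (0.0298), and Dtx4, a ubiquitin ligase of receptor turnover, at 0.54 ± 0.11 (0.0354). Dlk1 thus passed in both comparisons, which share the mandibular samples. Its means were 12.35 in the incisors, 11.93 in the mandibular and 11.50 in the maxillary molars. Means of Dner (7.66, 7.46 and 6.91) and Dtx4 (8.74, 8.44 and 7.90) stepped down in the same order of teeth. The skeletal muscle list had this order too, and the part of muscle tissue in these differences was not tested. The 2 lower were Cntn1, a contactin that can bind Notch, at -0.81 ± 0.21 (adjusted p = 0.0923), and the Mastermind coactivator Maml2 at -0.41 ± 0.09 (adjusted p = 0.0522). Cntn1 and Dtx4 also differed between mandibular molars 1 to 4 and 5 to 8, by -0.80 and 0.39 (adjusted p = 0.00886 and 0.0225 in limma). In that contrast 4 of the 58 were higher (Dtx4, Rfng, Dtx1 and Hes6) and 3 lower (Cntn1, Fbxw7 and Ep300), a share near the 11.8% of all probe sets. Rbpj differed between the molars by -0.04, Rbpjl by 0.03, Notch4 by 0.14, Dll3 by 0.03, Dll4 by 0.02, Heyl by 0.06 and Rfng by 0.24, and none of these passed.

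**Figure D4:**
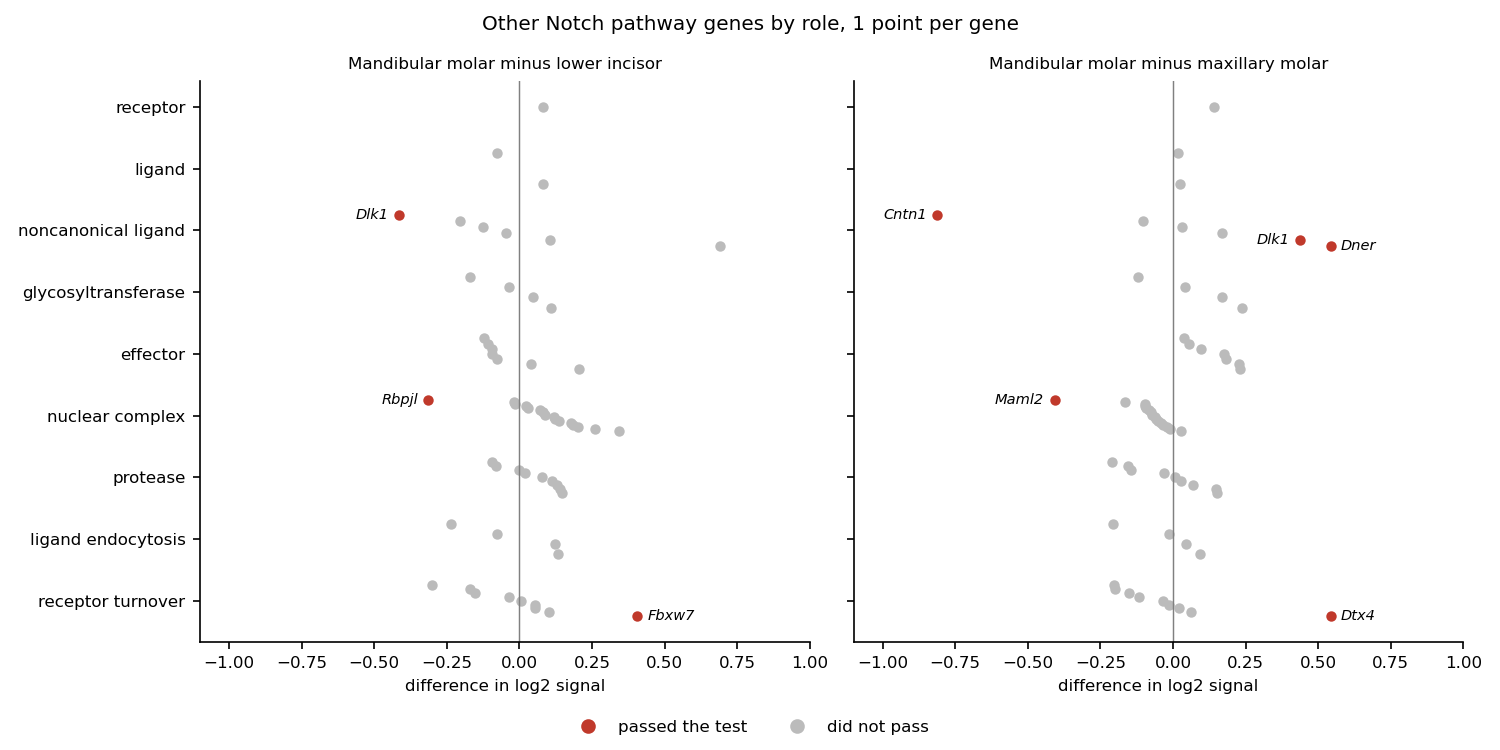
Difference in log2 signal (x axis) of the 58 other measured Notch pathway genes, grouped by role (y axis), between mandibular molars and lower incisors (left) and maxillary molars (right). Points are genes, red where they passed the test; 3 are red on the left and 5 on the right, and Dlk1 is red on both sides with opposite signs.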

How the data were processed

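Total RNA of pools of 4 tooth germs was hybridized, 1 array per sample, to Affymetrix Mouse Gene 1.0 ST arrays. Per the labels, the authors deposited log2 signals made by RMA in Affymetrix Expression Console 1.1, that is after background correction, quantile normalization and summary by probe set, for 35556 probe sets. The 21789 probe sets with 1 gene symbol gave 19938 genes; where a gene had several, that with the highest mean was used. The study's methods left out 1 of the 4 incisor samples, without naming it, for a technical problem during hybridization (high background). All 4 were used here. No pair of samples held identical values.

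Probe sets above 5 in at least 1 compared sample were tested with the moderated linear model of limma 3.58.1 (lmFit, eBayes; R 4.3.3) on the samples of each comparison, without a block, with Benjamini-Hochberg adjustment over all of them. A gene passed at an adjusted p below 0.1 and a fold change above 1.2. The number of arrays limits the precision. The procedure was tested on simulated data. All 10 genes are named in each comparison, other pathway genes where they passed or belong to 8 fixed ones, up to 4 genes of a marker list, and the 3 genes most like each gene that passed. Genes and lists were chosen with earlier results of these data known. Alternatives were other filters and normalizations, a floor at 5, array weights, the methods' t-test, 1 fit of all 3 groups, robust variances with a trend, either mandibular series alone, each sample left out, a replicate block and other uses of probe sets; the sample set as a block was added after seeing the data. Promoter windows came from RefSeq (GRCm38.p6).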

Additional observations from a re-analysis of the deposited data

Results flagged for a closer look

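A sample far from the others of its tooth type was looked for in each of the 10 genes and 3 tooth types with Dixon's ratio at the 95% level. Of these 30 groups 3 held one, where chance gives about 5% of groups. Hes1 in lower incisor 4 was at 9.0005, while the other incisors were at 8.64 to 8.65. Hes1 in mandibular molar 2 was at 8.8441, with the others at 9.10 to 9.30. Jag2 in mandibular molar 1 was at 9.3567, with the others at 8.99 to 9.11. Without incisor 4 the Hes1 difference between mandibular molars and incisors was 0.50, and without mandibular molar 2 it was 0.46; Jag2 without mandibular molar 1 was 0.23.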

How the results depend on the processing

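The lower Hey2 in mandibular molars than in incisors (-1.46 to -1.15) and the higher Dll1 in mandibular than in maxillary molars (0.28 to 0.41) passed under all 16 alternatives and without any 1 sample. Dll1 against the incisors failed under 6 of 16, with quantile normalization and cyclic loess through the fold limit alone (-0.24 and -0.22). Between mandibular molars and incisors 3 of the 10 genes passed, and 1 did with mandibular molars 1 to 4 only. Between the molars 1 passed, against 2 with the filter above 6, cyclic loess or a floor at 5, 3 with array weights or 1 probe set per gene, and 5 with mandibular molars 1 to 4 only. Of the other pathway genes 3 passed against the incisors, against 9 with array weights, 5 with all 3 groups in 1 fit or 1 probe set per gene, 1 with the sample set as a block, 0 with mandibular molars 1 to 4 only (adjusted limma test) and 13 with 5 to 8 only; between the molars 5 passed, against 2 with the sample set as a block and 14 with mandibular molars 1 to 4 only. The cause was not tested. Leaving out each sample gave 2 to 3, 1 to 2 and 0 to 3 of the 10 genes against the incisors, between the molars and between the mandibular series, and 1 to 5, 2 to 5 and 5 to 9 of the other genes.

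Signs turned only in genes that did not pass in the test of all samples. Lfng between the molars was among them, although it passed at -0.48 with mandibular molars 1 to 4 only. Against the incisors, Lfng was 0.0040 with median centring, 0.18 with array weights and 0.24 with mandibular molars 5 to 8 only, where Notch2 was 0.0167 and Jag1 0.0564; leaving out 1 sample gave -0.0968 to 0.0735 for Lfng and -0.0554 to 0.17 for Notch1. Between the molars, Hes1 was -0.0091 with median centring, -0.0372 with mandibular molars 1 to 4 only and -0.0128 to 0.0520 without 1 sample, and Jag1 and Lfng were 0.0195 and 0.0656 with mandibular molars 5 to 8 only or the sample set as a block.

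The samples share only replicate numbers: deviations of same-numbered samples correlated at 0.08 to 0.49 with the incisors (3 of 4 above 0.1) and 0.01 to 0.32 with the maxillary molars (2 of 4). Here 2 of 4 incisors and 3 of 4 maxillary molars correlated best with the mandibular molar of their own number. In the other direction, 2 of 4 mandibular molars correlated best with the incisor of their own number and 1 of 4 with the maxillary molar. With the replicate block, which uses mandibular molars 1 to 4 alone, 1 of the 10 genes and 0 of the other pathway genes (7 at an unadjusted p under 0.05 in limma) passed against the incisors, and 5 and 14 between the molars, where Hes1 was -0.0372.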
